A study of Mus musculus with 8 samples.

Results

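The effect of melatonin added to the vitrification of mouse blastocysts was examined by comparing 3 libraries of blastocysts vitrified with 1e-10 M melatonin in the vitrification and thawing media with 3 libraries of blastocysts vitrified without it. These 6 libraries are all those of the 2 vitrified groups among the 8 of the series, and the other 2, from fresh blastocysts that were not vitrified, are given as a reference. All 3 groups are RNA from whole mouse blastocysts, profiled by RNA sequencing and given as FPKM, a fragment count scaled to the length of the transcript and to the total of the library. Genes with at least 1 FPKM in at least 2 of the 8 libraries were compared, which 10755 of the 19688 genes in the table reached. Replicates are numbered as biosamples in the labels, which do not say whether these were separate animals, pools of embryos or cultures, so that every p-value measures the spread between these samples. Strain, embryo number per library, age and the time from thawing to lysis were each not stated in the labels.

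Vitrification turns cell water into a glass by fast cooling in concentrated cryoprotectant, and embryos pass through cold, osmotic and oxidative stress on the way in and out. The blastocyst consists of a trophectoderm epithelium that pumps fluid into a cavity, and an inner cell mass that divides into epiblast and primitive endoderm. Melatonin, the hormone of the pineal gland, acts through G protein-coupled receptors and also scavenges radicals, and it is widely used as an antioxidant additive in embryo culture.

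With melatonin, the glycolytic enzyme Hk2, the linker histones Hist1h1b and Hist1h1e, the actin-binding membrane protein Marcks, the transcription factor Jun and the RNA-binding protein Larp4b fell relative to vitrification alone. The actin-branching subunit Arpc1b and the mitochondrially encoded ATP synthase subunit mt-Atp6 rose. In all, 15 of 10755 genes (0.139%) passed limma's test at a Benjamini-Hochberg adjusted p below 0.05. Of these, 3 were higher with melatonin (0.0279% of those tested) and 12 were lower (0.112%), and 8 were protein-coding. A further 30 genes had an adjusted p between 0.05 and 0.1, 2 of them higher and 28 lower.

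Lower values with melatonin also outnumbered higher ones below that threshold. At an unadjusted p below 0.05, 1102 genes were lower (10.2% of those tested) and 494 higher (4.59%), where 538 in all are due by chance. The 3 libraries of each group did not overlap for 1659 genes in the lower direction (15.4%) and 1000 in the higher direction (9.30%). The median log2 fold change of all tested genes was -0.05 (0.02 with quantile normalization), and 43.8% of them were above 0. Fold changes throughout are differences of mean log2(FPKM + 1), melatonin minus vitrified, given with their SE, and they understate the change in FPKM of genes of low level.

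**Figure D1:**
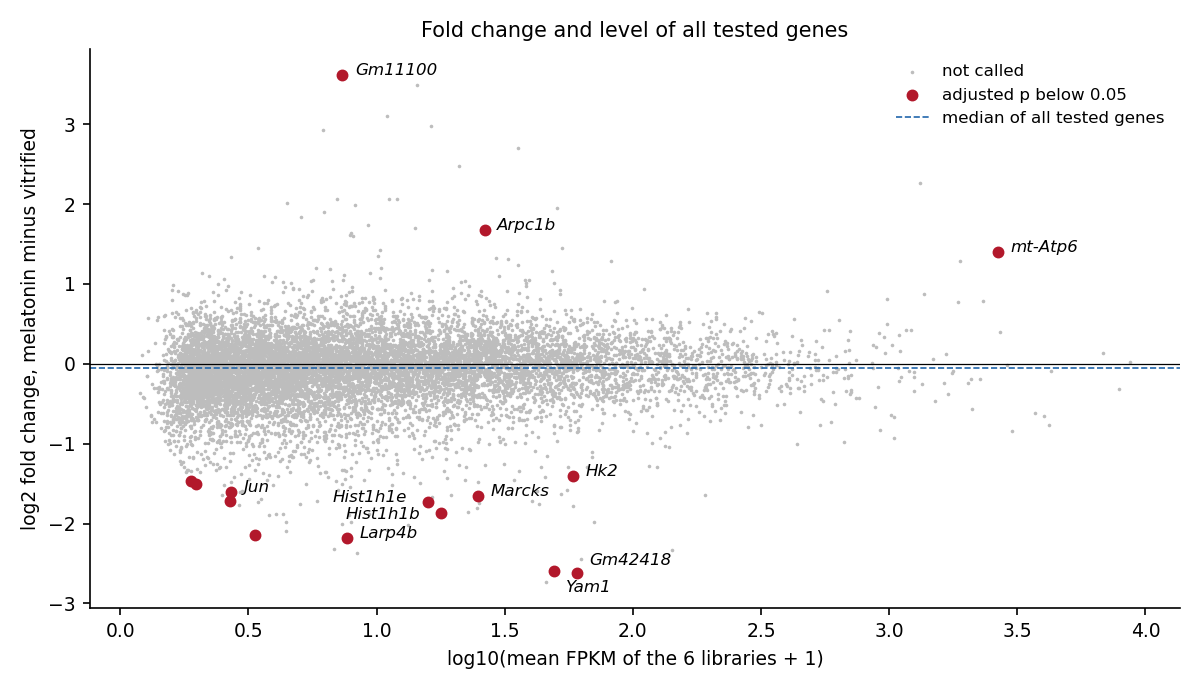
Each point is 1 of the 10755 tested genes, with the log10 of its mean FPKM over the 6 libraries plus 1 on the horizontal axis and the log2 fold change, melatonin minus vitrified, on the vertical axis. The 15 genes with an adjusted p below 0.05 are red, 3 above and 12 below 0, and the dashed line is the median of all tested genes at -0.05.

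The libraries were of similar depth, between 5879000 and 8208000 fragments in the 6 compared and 5815000 and 9998000 in the fresh ones, as estimated from the spacing of low FPKM values. At that depth 1 FPKM of a 2 kb transcript stood for 11.6 to 20.0 fragments. The first principal component of the 6 libraries (41.3% of the variance) set the vitrified libraries, at -35.2 to -4.79, apart from the melatonin libraries, at 16.7 to 27.3. Vitrified replicate 1 lay nearest to the melatonin group. Transcripts of the Y chromosome summed to 36.8, 0 and 0 FPKM in the vitrified libraries and 34.2, 34.5 and 28.4 with melatonin. They were thus present in all 3 melatonin libraries and both fresh ones (20.9 and 26.0) but in 1 of 3 vitrified ones, so that embryo sex differed between the compared groups. With the presence of these transcripts as a covariate, 3 genes passed instead of 15 and 1 of the 15 (Gm11100) was among them, while all 15 kept their sign. That fit takes the vitrified level from vitrified replicate 1 only. The groups did not overlap in any of the 15, so their sign could not change in it. In bulk RNA of this kind, fewer cells of a type and less RNA per cell cannot be told apart. Markers of all 3 blastocyst lineages were present in each library, with Cdx2 of the trophectoderm at 20.2, 20.8 and 18.8 FPKM in the vitrified and 26.99, 24.2 and 21.9 in the melatonin libraries, and Gata6 of the primitive endoderm at 33.1, 33.7 and 34.9 against 25.99, 16.99 and 19.4.

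The number of called genes depended on single libraries. Leaving out vitrified replicates 1, 2 and 3 gave 15, 8 and 5 genes, of which 7, 5 and 4 were among the 15 called with all libraries. Leaving out melatonin replicates 1, 2 and 3 gave 2, 11 and 1, of which 1, 8 and 1 were among them. Without fresh replicate 1 or 2, which enter only through the shared estimate of the spread, 67 and 68 genes passed. All 15 were among them in both fits. The noncoding Gm11100 kept its call in all 8 of these fits. Hk2 and Gm42418 kept theirs in 6, Arpc1b and Yam1 in 5, and Marcks in 4. Larp4b, mt-Atp6, Hist1h1b and Gm43628 passed in 3 of 8, and Jun, Hist1h1e, Gm28791, Gm26518 and Vmn2r-ps20 in 2. Since 2 of the 8 fits leave out a fresh library, genes at 2 passed in no fit that left out a vitrified or melatonin library.

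Hexokinase 2, encoded by Hk2 (chr6:82725025-82774454, minus strand, mm10), phosphorylates glucose in the first step of glycolysis and can bind the outer mitochondrial membrane. Its level was 82.2, 97.5 and 71.7 FPKM in vitrified replicates 1 to 3 and 31.6, 28.1 and 33.2 in melatonin replicates 1 to 3, with fresh libraries at 37.8 and 34.9. All melatonin values lay below all vitrified values, and the mean was 2.704-fold higher without melatonin. The log2 fold change was -1.40 ± 0.15 (95% interval -1.74 to -1.06) with a limma adjusted p of 0.0172. Hk2 was the 1 hexokinase or glucokinase gene of 4 in the table that reached the level required for testing.

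The gene mt-Atp6 (chrM:7927-8607, plus strand) encodes the subunit of the ATP synthase that forms its proton channel in the inner mitochondrial membrane. It stood at 1348, 1826 and 1253 FPKM in the vitrified libraries and 4106, 3850 and 3619 with melatonin, and at 3997 and 6003 in the fresh libraries. The groups did not overlap, and mt-Atp6 rose by a log2 fold change of 1.40 ± 0.19 (adjusted p = 0.02799, limma). It shares 43 bases with mt-Atp8 and 1 base with mt-Co3 on the same strand, and neither of these neighbours was higher with melatonin (log2 fold changes -0.29 and -0.61).

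A pair of genes of the actin cytoskeleton changed in opposite directions. Arpc1b (chr5:145114215-145130705, plus strand), a subunit of the Arp2/3 complex that nucleates branched actin filaments, was at 10.9, 9.93 and 13.9 FPKM in the vitrified and 48.97, 35.2 and 33.5 in the melatonin libraries, against 54.9 and 47.4 in the fresh ones. Every melatonin value was more than the highest vitrified value, and Arpc1b rose, with a log2 fold change of 1.67 ± 0.19 (limma adjusted p = 0.0172). It overlaps Pdap1 on the opposite strand by 1937 bases, and Pdap1 had a log2 fold change of -0.48. Marcks (chr10:37133375-37138920, minus strand), a membrane-bound actin cross-linker that protein kinase C releases into the cytosol, was at 30.96, 39.5 and 39.7 FPKM without and 8.12, 14.4 and 11.1 with melatonin, and at 14.7 and 13.8 in fresh blastocysts. The groups did not overlap, and Marcks fell, with a log2 fold change of -1.65 ± 0.21 (adjusted p = 0.0246). Its relative Marcksl1 was at 185, 163 and 168 against 181, 116 and 165 FPKM, with overlapping groups.

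Jun (chr4:95049034-95052222, minus strand), a subunit of the AP-1 transcription factor and an immediate early gene of growth factor and stress signals, was at 2.99, 3.84 and 2.41 FPKM in the vitrified, 0.176, 0.32 and 0.488 in the melatonin and 1.29 and 1.29 in the fresh libraries. The melatonin values were the lowest of the 8, the log2 fold change was -1.61 ± 0.21, and the limma adjusted p was 0.0246. Levels this low rest on few fragments, and the log2(FPKM + 1) scale understates the 9.39-fold ratio of the means. Larp4b (chr13:9093881-9174451, plus strand), a La-related protein that binds messenger RNAs and acts in their translation, was at 12.3, 11.2 and 11.1 FPKM without melatonin, 2.21, 0.818 and 2.57 with it and 4.82 and 8.54 in fresh blastocysts. Larp4b fell, with the vitrified libraries close together and all above the melatonin ones (log2 fold change -2.19 ± 0.29, adjusted p = 0.0246, limma). Of the 5 other La-related genes tested, log2 fold changes ran from -0.23 for Larp1 to 0.28 for Larp7, and 0 of them passed.

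**Figure D2:**
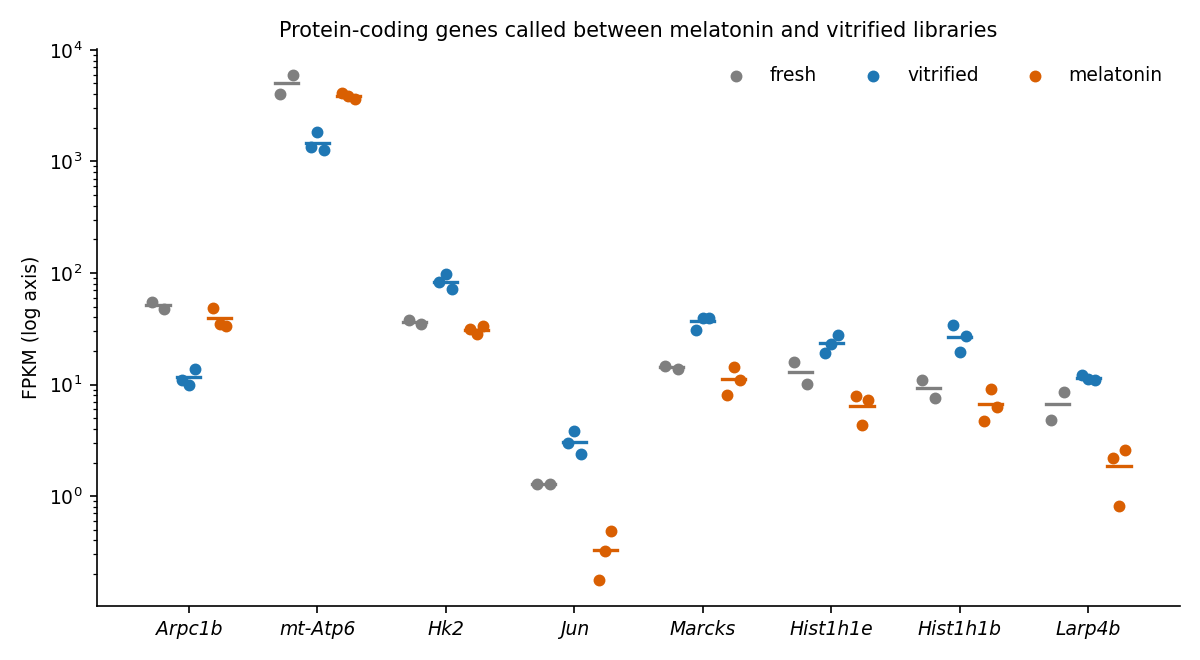
FPKM (log axis) of the 8 protein-coding genes with an adjusted p below 0.05, with 1 point per library and a bar at the mean of each group, for fresh (grey, 2 libraries), vitrified (blue, 3) and melatonin (orange, 3) blastocysts. In each gene the blue and orange points do not overlap, with Arpc1b and mt-Atp6 higher and the other 6 lower with melatonin.

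Linker histones bind the DNA between nucleosomes and compact chromatin, and the replication-dependent ones are made in S phase. Hist1h1b, the H1.5 gene (chr13:21779883-21780625, minus strand), was at 34.1, 19.6 and 27.1 FPKM in the vitrified libraries, 4.71, 9.16 and 6.29 with melatonin and 10.9 and 7.64 in the fresh ones. Hist1h1e, the H1.4 gene (chr13:23620629-23622558, minus strand), was at 19.2, 23.2 and 27.5 FPKM without melatonin, 7.86, 4.32 and 7.19 with it and 15.8 and 10.1 in fresh blastocysts. In both, every melatonin value lay below every vitrified value, and both fell, with log2 fold changes of -1.86 ± 0.27 for Hist1h1b and -1.73 ± 0.25 for Hist1h1e (limma adjusted p = 0.0375 in both cases). Hist1h1a, at 5.32, 4.54 and 8.54 against 1.31, 0 and 0.882 FPKM, had a log2 fold change of -2.09 ± 0.33 and did not pass (adjusted p = 0.0695). Hist1h1d had -0.94 (adjusted p = 0.307) and Hist1h1c, with overlapping groups at 8.31, 3.64 and 9.996 against 13.4, 7.96 and 3.54 FPKM, had 0.10 (-0.15 with embryo sex as a covariate). The family was set out member by member after the calls were known.

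The 250 bases before the start of each of these 5 linker histone genes are shown because 4 of them lay lower with melatonin and the fifth did not. Sequences are from RefSeq on GRCm38.p6, which gave a promoter for 7 of the 15 called genes, and are written 5′ to 3′ in the direction of transcription. Capitals mark matches, on either strand, to CCAAT, to the TATA motif TATAAA and to AAACACA, the box known from H1 promoters.
Hist1h1b (chr13:21780626-21780875, minus strand): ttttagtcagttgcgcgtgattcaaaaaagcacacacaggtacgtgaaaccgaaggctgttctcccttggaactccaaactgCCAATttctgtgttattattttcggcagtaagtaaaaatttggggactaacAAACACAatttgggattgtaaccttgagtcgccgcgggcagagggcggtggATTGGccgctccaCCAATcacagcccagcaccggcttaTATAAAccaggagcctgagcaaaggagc
Hist1h1e (chr13:23622559-23622808, minus strand): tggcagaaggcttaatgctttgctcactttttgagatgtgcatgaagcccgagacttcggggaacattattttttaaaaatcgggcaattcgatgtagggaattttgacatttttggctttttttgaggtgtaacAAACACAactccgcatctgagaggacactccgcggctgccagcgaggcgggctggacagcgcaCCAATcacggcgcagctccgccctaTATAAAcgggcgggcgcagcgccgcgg
Hist1h1a (chr13:23763418-23763667, plus strand): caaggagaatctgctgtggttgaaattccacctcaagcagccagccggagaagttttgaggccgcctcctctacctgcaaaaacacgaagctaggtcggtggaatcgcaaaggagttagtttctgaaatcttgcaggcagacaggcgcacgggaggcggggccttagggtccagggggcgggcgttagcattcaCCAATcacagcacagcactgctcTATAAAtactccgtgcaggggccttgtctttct
Hist1h1d (chr13:23554782-23555031, plus strand): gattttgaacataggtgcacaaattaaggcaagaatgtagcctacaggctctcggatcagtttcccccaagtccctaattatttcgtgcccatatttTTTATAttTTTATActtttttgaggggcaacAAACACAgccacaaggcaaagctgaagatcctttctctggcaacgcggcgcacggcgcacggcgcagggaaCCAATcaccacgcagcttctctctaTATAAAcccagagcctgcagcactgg
Hist1h1c (chr13:23738557-23738806, plus strand): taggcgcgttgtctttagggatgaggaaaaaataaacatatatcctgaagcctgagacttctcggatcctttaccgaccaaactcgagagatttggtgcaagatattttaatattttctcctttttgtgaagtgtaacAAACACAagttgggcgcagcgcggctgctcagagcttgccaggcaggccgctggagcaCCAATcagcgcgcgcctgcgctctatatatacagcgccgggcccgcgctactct

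All 5 windows held a CCAAT match between 51 and 56 bases before the start. AAACACA stood between 112 and 122 bases before the start of Hist1h1b, Hist1h1e, Hist1h1d and Hist1h1c, and Hist1h1a had 0 matches to it. TATAAA stood between 26 and 33 bases before the start of 4 genes, and Hist1h1c had 0 matches to these exact letters. At about the same place its window reads tatatata, left in lower case, so the 0 does not show that it lacks a TATA-like stretch. The RefSeq start of Hist1h1d lies 1770 bases downstream of the GENCODE gene start, while for the other 4 the difference is at most 2 bases. Of 32851 windows of this length in the table, 33.8% held CCAAT, 12.4% TATAAA and 6.25% AAACACA, and of the 63 of histone genes 82.5%, 46% and 14.3% did. These matches describe the letters in the windows and are no measurement of binding.

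The core histone genes of the replication-dependent clusters also had mostly negative log2 fold changes. Of 47 tested replication-dependent histone genes, including the linker genes, 2 fell, 0 rose and 45 did not pass. At an unadjusted p below 0.05, 21 were lower and 2 higher, and the median log2 fold change was -0.65, against -0.05 for all tested genes. Their summed level was 1347, 1200 and 1220 FPKM in the vitrified, 602, 631 and 698 in the melatonin and 1197 and 719 in the fresh libraries, with the melatonin sums the lowest of the 8. Most of the sum was Hist1h2ao, at 978, 820.5 and 862 FPKM without and 419, 427 and 499.6 with melatonin (adjusted p = 0.104). Hist1h4d was at 26.8, 33.8 and 32.9 against 9.62, 7.79 and 15.8 FPKM (adjusted p = 0.0802). The core histone genes have near-identical copies, so their single values are uncertain. The labels name both Smart-seq2 and stranded poly(A) libraries. How far these recover replication-dependent histone transcripts, those of the linker genes included, was not tested, so the FPKM may not give their abundance. The 10 replication-independent histone genes had a median of -0.08 (0.09 with embryo sex as a covariate), and H2afx, whose phosphorylated form marks DNA breaks, was at 539, 552 and 408 against 585, 641 and 774 FPKM. These histone lists were set up after the calls were known. Removing trends of GC content and transcript length brought the median of the replication-dependent genes to -0.34.

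The remaining 7 called genes were noncoding or pseudogenes. Gm11100 (chr14:13918444-13949558, plus strand), a processed transcript, was at 0.127, 0.0649 and 0.109 FPKM in the vitrified libraries, 11.04, 12.1 and 14.6 with melatonin and 14.98 and 11.9 in the fresh ones, a log2 fold change of 3.62 ± 0.18 with a limma adjusted p of 5.53e-05. It was the largest fold change and the smallest p of all tested genes. It overlaps Thoc7, a subunit of the mRNA export complex, by 547 bases on the opposite strand, and Thoc7 was at 144, 164 and 144 against 146, 161 and 189 FPKM, with overlapping groups. Gm42418 (chr17:39846958-39848788, plus strand) was at 80.2, 93.1 and 136 FPKM without and 13.4, 18.9 and 14.7 with melatonin (-2.62 ± 0.28, adjusted p = 0.0172). Yam1 (chr17:39847113-39848035, minus strand) was at 65.1, 70.9 and 115 against 9.401, 15.5 and 13.7 FPKM (-2.59 ± 0.30, adjusted p = 0.0172). These genes overlap each other on opposite strands and both lie over an annotated ribosomal RNA gene, CT010467.1, so their reads cannot be told apart. The neighbouring Gm26917, chosen after its values were seen, was at 110.2, 51.6 and 74.7 against 10.5, 11.8 and 9.17 FPKM, short of the threshold (adjusted p = 0.161).

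The other noncoding genes that fell were near 0 with melatonin. Gm43628 was at 3.24, 6.39 and 3.9 FPKM in the vitrified and 0.118, 0.43 and 0.119 in the melatonin libraries, and lies within Rfc1, on the same strand. The sense intronic Gm28791 was at 2.16, 1.64 and 1.99 against 0, 0 and 0.0796 FPKM. Gm26518 was at 1.57, 2.18 and 1.602 FPKM and listed at 0 in all 3 melatonin libraries. The pseudogene Vmn2r-ps20 was at 2.61, 4.197 and 2.55 against 0.367, 0 and 0.371 FPKM. Rfc1 itself had a log2 fold change of -0.45 (adjusted p = 0.26).

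The classes of Gm28791 and Gm43628 were also described as a whole. Annotated sense intronic genes, which are transcripts within introns of other genes, summed to 44.3, 45.5 and 44.1 FPKM in the vitrified libraries, 11.5, 16.7 and 15.8 with melatonin and 5.12 and 13.3 in the fresh ones. All melatonin sums lay below all vitrified sums. Of 126 sense intronic genes in the table, 13 were tested. Of these 13, 1 fell, 10 were lower at an unadjusted p below 0.05 and 0 higher, with a median log2 fold change of -0.90. A gene can reach the level for testing through the libraries of 1 group alone. In classes of low level that sum highest in the vitrified libraries, such counts and medians therefore follow in part from the filter. Genes of the class TEC, transcribed loci whose gene models await experimental proof, were detected above 0 in 554, 572 and 548 cases in the vitrified, 326, 283 and 340 in the melatonin and 213 and 336 in the fresh libraries. Of 96 tested, 34 were lower and 3 higher at an unadjusted p below 0.05 (median -0.32, or -0.19 with quantile normalization). For 207 lincRNAs these counts were 32 and 6 (median -0.21, or -0.10 after quantile normalization, 3 called lower), and for 314 antisense genes 38 and 8 (median -0.13). Quantile normalization brought the antisense median to -0.0045, and the 12.1% of antisense genes that were lower stood near the 10.2% of all tested genes. Protein-coding genes had a median of -0.04 (0.03 with quantile normalization), with 907 lower and 463 higher of 9636.

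The number of genes detected was lower in each melatonin library. Above 0 FPKM, 15749, 16328 and 16400 genes were listed in the vitrified libraries and 14878, 14544 and 14889 with melatonin, against 14260 and 14741 in the fresh ones. The groups did not overlap, and the difference of -1389 genes had an exact permutation p of 0.1 (two-sided), the smallest that 3 against 3 libraries can give. It was -1045 genes at 0.1 FPKM or more and -465 at 1 FPKM or more. The estimated fragments behind these counts were 7022000, 6859000 and 8208000 in the vitrified and 7144000, 5879000 and 7064000 in the melatonin libraries, and their part in the difference was not tested.

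**Figure D3:**
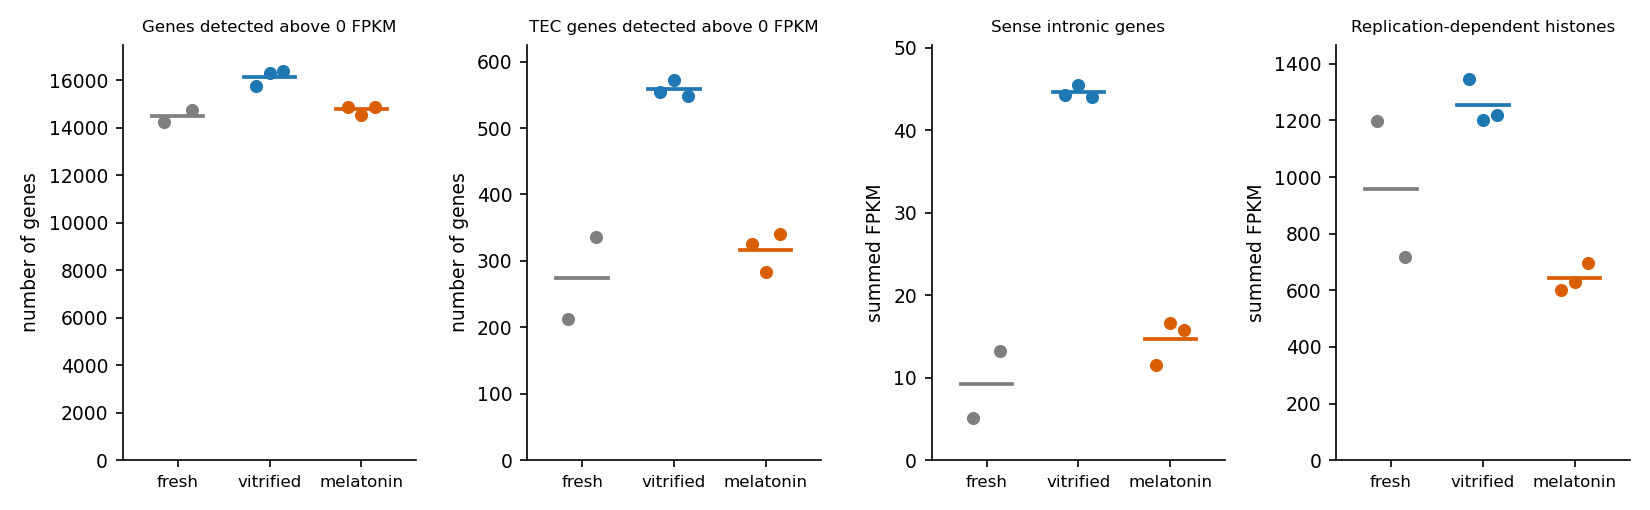
From left to right, the number of genes above 0 FPKM, the number of TEC genes above 0 FPKM, the summed FPKM of sense intronic genes and the summed FPKM of replication-dependent histone genes, with 1 point per library and a bar at the mean of each group. In every panel the 3 melatonin libraries lie below the 3 vitrified ones, for example at 11.5 to 16.7 against 44.1 to 45.5 summed FPKM for sense intronic genes.

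Genes listed at 0 in every library of 1 group and above 0 in every library of the other were unevenly split. There were 233 that were above 0 only with vitrification alone, of which 107 were protein-coding and 59 TEC, and 16 above 0 only with melatonin, of which 10 were protein-coding. Most were too low to be tested, 14 of the 233 and 0 of the 16 having reached the required level. The protein-coding ones with the highest level in vitrified libraries were Ube2dnl2, a ubiquitin-conjugating enzyme gene, at 0.767, 1.37 and 2.79 FPKM, Phf11a at 0.526, 3.23 and 0.540, Shisa8 at 0.711, 1.94 and 1.08, and the chemokine gene Cxcl17 at 0.124, 1.39 and 0.740. Above 0 only with melatonin were Rbp7, a retinol-binding protein (0.381, 0.309 and 0.257 FPKM), the phosphate transporter Slc34a3 (0.288, 0.401 and 0.125) and the angiotensin receptor Agtr1a (0.227, 0.345 and 0.230). The antisense genes Kif16bos and Zfhx2os and the kisspeptin receptor Kiss1r were the others with the highest level.

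The mitochondrial genome encodes 13 proteins of the respiratory chain and ATP synthase, all of which were tested. Only mt-Atp6 had a positive log2 fold change, and the other 12 ran from -1.98 to -0.02, although mt-Cytb was at 0.04 with median ratio scaling and mt-Nd2 and mt-Nd6 at 0.27 and 0.07 with embryo sex as a covariate. The median over the 13 was -0.43, or -0.21 with that covariate and -0.28 once trends of GC content and length were removed. Among the complex I subunits, mt-Nd3 was at 79.8, 142 and 114 FPKM in the vitrified and 24.5, 28.4 and 27.7 in the melatonin libraries (-1.98 ± 0.63, limma adjusted p = 0.223). The adjacent mt-Nd4l was at 152, 183 and 154 against 52.8, 77.3 and 71.02 FPKM (-1.28 ± 0.44, adjusted p = 0.242). Neither passed, although in both the groups did not overlap. The cytochrome oxidase subunit mt-Co2 was at 925, 1539 and 1103 against 658, 626 and 686 FPKM. By contrast mt-Cytb, of complex III, was nearly the same in both groups, at 2842, 3257 and 2604 against 3153, 2811 and 2606 FPKM (-0.02 ± 0.21, 95% interval -0.49 to 0.45). In total, 5 of the 13 were lower at an unadjusted p below 0.05, 1 was higher, and this one was the called mt-Atp6.

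The share of mt-Atp6 in the summed FPKM of these 13 genes was 7.59%, 7.59% and 6.98% in the vitrified libraries and 22.5%, 23.1% and 21.6% with melatonin. The fresh libraries differed from each other, at 7.78% in replicate 1 and 22.9% in replicate 2. The exact permutation p between vitrified and melatonin libraries was 0.1, the smallest possible. This share was computed for the gene already called, whose groups did not overlap, so that p is no further support for the call. All 13 genes together took 5.02 ± 0.753% (SD, n = 3) of the summed FPKM without and 4.52 ± 0.363% (SD, n = 3) with melatonin, which the exact permutation test did not separate (p = 0.5, two-sided). The single-gene values of the fresh libraries were also unlike, with mt-Nd3 at 331 and 35.6 FPKM and mt-Nd4l at 392 and 86.3. They enter the shared estimate of the spread, which was wide for these genes.

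**Figure D4:**
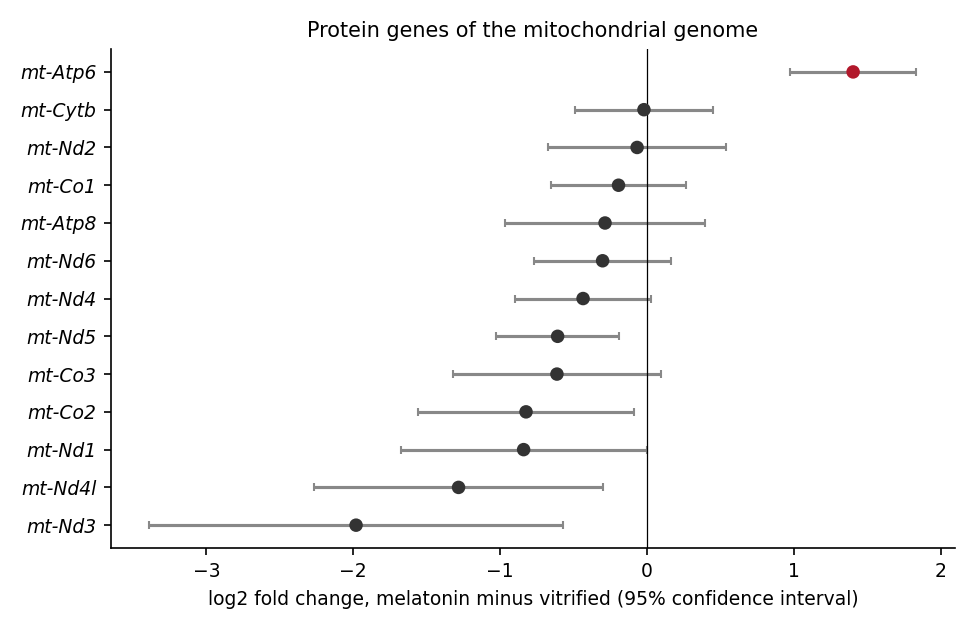
Log2 fold change, melatonin minus vitrified, of the 13 protein genes of the mitochondrial genome, with its 95% confidence interval from limma as a bar and mt-Atp6, the 1 called gene, in red. mt-Atp6 lies at 1.40, and the other 12 lie between -1.98 and -0.02, where mt-Cytb, mt-Nd2 and mt-Nd6 change sign under other settings.

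Further groups of genes are described below by their counts and their median, beside the median of -0.05 and the shares of 10.2% lower and 4.59% higher at an unadjusted p below 0.05 over all tested genes. Members named there were picked after their values were seen, mostly as those with the smallest p, and did not pass the test over all genes unless a call is stated.

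Glycolysis and glucose uptake held Hk2 as its 1 called gene. Of 18 members tested, 8 were lower and 0 higher at an unadjusted p below 0.05, with a median log2 fold change of -0.27. Below Hk2 in the pathway, the phosphofructokinase gene Pfkl was at 17.8, 19.9 and 20.9 FPKM without and 19.5, 8.93 and 8.302 with melatonin, and the groups overlapped through melatonin replicate 1. Phosphoglycerate mutase Pgam1 was at 125, 151 and 129 against 88.1, 85.6 and 95.1 FPKM (-0.58 ± 0.14, adjusted p = 0.132), pyruvate kinase Pkm at 250, 215 and 225 against 197, 132 and 117 (-0.66) and lactate dehydrogenase Ldha at 26.3, 61.4 and 34.03 against 22.1, 19.7 and 16.8 (-0.94). These 3 enzymes of the lower pathway each lay below the vitrified libraries in all 3 melatonin libraries. The glucose transporter Slc2a1 was at 8.18, 6.87 and 7.84 against 7.399, 8.67 and 6.64 FPKM, with overlapping groups, and Slc2a3 at 78.8, 48.6 and 79.4 against 119.7, 96.9 and 81.3 (0.54 ± 0.26, adjusted p = 0.373). The Slc2a3 value was 0.31 without vitrified replicate 2, likewise 0.31 with sex in the model, and 0.16 with a block by title number. Ldha, Pkm and Hk2 are also hypoxia targets, a list whose 18 tested members had a median of -0.04 (0.02 with quantile normalization). In that list 5 genes (27.8%) were lower and 1 higher at an unadjusted p below 0.05, and Hk2 was the 1 called gene.

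In the pentose phosphate pathway, which supplies NADPH and ribose, the neighbouring enzymes of ribulose phosphate pointed opposite ways. Rpia was at 3.42, 1.76 and 2.41 FPKM in the vitrified and 0.481, 0.6401 and 0.463 in the melatonin libraries (-1.19 ± 0.23), and Rpe at 11.8, 14.8 and 12.4 against 21.6, 25.1 and 21.8 (0.77 ± 0.15). Both had a limma adjusted p of 0.104, and in neither did the groups overlap. G6pdx, which commits glucose to this pathway and lies on the X chromosome, was at 9.74, 13.8 and 15.1 against 9.51, 8.86 and 5.98 FPKM (adjusted p = 0.296).

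Nuclear genes of mitochondria moved little. The 26 genes of the citrate cycle and pyruvate entry had a median of -0.05 (0.00 with median ratio scaling), the 36 nuclear subunits of complex I -0.12 (0.00 with embryo sex as a covariate) and the 40 nuclear subunits of the ATP synthase and complexes II to IV -0.16 (-0.04 with that covariate). Called genes numbered 0 in each of these lists, and at an unadjusted p below 0.05 there were 3, 2 and 4 lower and 0 higher. The isocitrate dehydrogenase subunit Idh3g, which lies on the X chromosome, was at 30.9, 61.7 and 55.8 against 19.97, 25.9 and 30.3 FPKM. It was highest in vitrified replicates 2 and 3, the libraries without Y-linked transcripts. The ATP synthase subunit Atp5k was at 126, 167 and 141 against 90.5, 85.2 and 98.2 FPKM. Genes of mitochondrial genome maintenance, fusion, fission and import had a median of 0.02 (29 tested), and the 77 mitochondrial ribosomal proteins one of -0.05. Embryo sex as a covariate put these medians at -0.01 and 0.02. Tfam, which packages and transcribes mitochondrial DNA, was at 12.1, 12.5 and 18.1 against 11.6, 12.3 and 10.6 FPKM, and Nrf1, a regulator of respiratory genes, at 3.94, 3.78 and 3.76 against 5.05, 4.33 and 4.63.

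Antioxidant enzymes were of interest because melatonin was tested as a protectant against oxidative stress. Of 31 tested superoxide dismutases, catalase, glutathione peroxidases, peroxiredoxins and thioredoxins, 0 passed, 6 were lower and 2 higher at an unadjusted p below 0.05, and the median was -0.20. The cytosolic superoxide dismutase Sod1 was at 29.5, 54.8 and 35.3 FPKM without and 24.5, 24.8 and 22.4 with melatonin (-0.67 ± 0.22, limma adjusted p = 0.234), without overlap. This log2 fold change was -0.42 without vitrified replicate 2 and -0.30 with embryo sex as a covariate. The mitochondrial Sod2 was at 255, 221 and 229.8 against 174, 242 and 235 FPKM (-0.13 ± 0.17, 95% interval -0.51 to 0.26), and catalase, Cat, at 27.6, 18.4 and 20.2 against 26.9, 28.04 and 16.97 (0.10 ± 0.22, 95% interval -0.40 to 0.60). In both genes the groups overlapped. The glutathione peroxidases Gpx1 and Gpx4 had log2 fold changes of -0.18 ± 0.18 and -0.21 ± 0.21. Prdx2 was at 28.2, 49.8 and 38.7 against 20.4, 23.96 and 27.2 FPKM, Glrx at 124, 126 and 138 against 163, 189 and 180.1 and Msra, which repairs oxidized methionine, at 10.8, 10.8 and 9.68 against 12.8, 15.99 and 15.3.

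The NRF2 pathway switches on antioxidant and glutathione genes. Its 31 tested members had a median of -0.11 (-0.03 with sex in the model and -0.04 with quantile normalization), with 0 called, 4 lower and 2 higher at an unadjusted p below 0.05. The factor itself, Nfe2l2, was at 30.97, 53.6 and 38.5 FPKM without and 36.9, 38.3 and 34.1 with melatonin, and its inhibitor Keap1 at 3.92, 1.49 and 2.798 against 4.05, 2.496 and 2.44. Among targets, Hmox1 was at 14.8, 13.8 and 17.03 against 18.6, 11.98 and 16.8 FPKM (0.03 ± 0.18, 95% interval -0.38 to 0.45), Nqo1 at 0.734, 1.596 and 0.235 against 0.1802, 1.64 and 0, and Gss, which makes glutathione, at 30.3, 23.2 and 23.2 against 38.5, 34.8 and 28.5. In these 5 genes the groups overlapped. Nqo2, a quinone reductase known to bind melatonin, was at 4.08, 4.55 and 3.98 FPKM in the vitrified and 5.49, 7.71 and 5.74 in the melatonin libraries, without overlap but not past the test (0.48 ± 0.22, adjusted p = 0.353). The thioredoxin inhibitor Txnip had a log2 fold change of -0.06 ± 0.29. Melatonin synthesis and clock genes were mostly low, 11 being tested with a median of 0.26 and 0 called, and the receptor genes Mtnr1a and Mtnr1b were not analysed here.

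The integrated stress response lowers general translation and raises Atf4, while the unfolded protein response acts through Xbp1 and others. Of 42 tested genes 0 passed, 5 were higher and 1 lower at an unadjusted p below 0.05, and the median was 0.17. Atf4 was at 72.6, 78.5 and 73.99 FPKM without and 121, 81.3 and 111 with melatonin, and its target Chac1, which degrades glutathione, at 4.35, 4.81 and 3.27 against 8.55, 4.68 and 24.9 (1.13 ± 0.45, limma adjusted p = 0.292). Melatonin replicate 2 had the lowest value of its group in both and lay within or next to the vitrified range. The ubiquitin-domain protein Herpud1 had the same pattern, at 18.8, 18.8 and 19.5 against 64.02, 24.3 and 62.4 FPKM, and Xbp1 was at 47.4, 55.1 and 53.96 against 90.6, 65.8 and 79.5, without overlap. Ddit3, the factor CHOP, was at 30.5, 19.1 and 27.0 against 33.3, 14.9 and 64.3 FPKM, and Cebpb at 16.9, 21.4 and 33.9 against 15.2, 8.596 and 15.2, in the opposite direction. Among chaperones and their cofactors, Bag3 was at 22.3, 10.6 and 21.4 against 57.2, 37.98 and 39.7 FPKM (1.31 ± 0.32, adjusted p = 0.156) and Hspb1 at 27.3, 115 and 48.5 against 27.6, 16.9 and 20.8, and the 29 tested heat shock genes had a median of -0.06. The cold-inducible RNA-binding protein Rbm3, whose gene lies on the X chromosome, was at 8.11, 11.9 and 10.9 against 7.22, 6.54 and 5.49 FPKM. Ybx3, a cold shock domain protein, was at 102, 69.1 and 75.5 against 25.8, 27.9 and 25.6 (-1.58 ± 0.27, adjusted p = 0.0802).

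Lists of p53 and apoptosis genes had negative medians. Of 29 p53 regulators and targets 4 were lower and 1 higher at an unadjusted p below 0.05 (median -0.25, 0 called), and of 27 BCL2 family, caspase and inhibitor genes 2 and 0 (median -0.16, 0 called). The cell cycle inhibitor Cdkn1a was at 36.9, 52.5 and 28.5 FPKM without and 13.9, 17.8 and 26.8 with melatonin, and Gadd45b at 6.52, 13.6 and 14.1 against 5.75, 4.17 and 4.25 (-1.06 ± 0.27, limma adjusted p = 0.164). Trp53 itself was at 9.497, 16.7 and 12.8 against 10.1, 11.01 and 8.604 FPKM. The apoptosis effector Bax was at 118, 164 and 110.1 against 110.2, 105 and 93.3 FPKM, with overlapping groups. The apoptosis inhibitor Bcl2 and the mitochondrial regulator Ppargc1a were below the level for testing. Among 37 genes of DNA repair (median -0.20, or -0.11 with sex in the model), Apex1 of base excision repair was at 58.3, 89.2 and 66.7 against 28.3, 37.7 and 56.2 FPKM, and Brca1 at 3.103, 4.68 and 3.96 against 2.57, 2.78 and 2.25.

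Genes of DNA replication and of mitosis had medians of opposite sign, a difference that was not tested. Of 35 genes of replication licensing, polymerases and nucleotide supply, 33 had a negative log2 fold change, 9 were lower and 0 higher at an unadjusted p below 0.05, and the median was -0.29. Of 39 mitotic cyclins, kinases and motors, 33 were positive, 8 higher and 1 lower, with a median of 0.18. Called genes numbered 0 in both lists. The direction of both medians was the same under median ratio scaling (-0.23 and 0.22), quantile normalization (-0.26 and 0.22) and with sex in the model (-0.30 and 0.28). In S phase, the large ribonucleotide reductase subunit Rrm1 was at 154, 128 and 149.5 FPKM without and 90.8, 119.6 and 96.8 with melatonin (-0.49 ± 0.15, limma adjusted p = 0.203), the helicase subunit Mcm7 at 38.4, 37.5 and 42.9 against 28.3, 31.8 and 27.9 and the transcription factor E2f1 at 7.38, 5.41 and 9.56 against 4.33, 3.701 and 3.62. All 3 had melatonin libraries below vitrified ones without overlap. In mitosis, cyclin B1, Ccnb1, was at 28.2, 43.1 and 36.05 against 58.05, 76.2 and 63.3 FPKM (0.87 ± 0.22, adjusted p = 0.164), the kinase Aurka at 114, 148 and 111 against 171, 246 and 186 and the anaphase activator Cdc20 at 186, 275 and 199.5 against 344, 359.8 and 278. Here the melatonin libraries lay above the vitrified ones, again without overlap.

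Immediate early genes besides Jun had mostly negative log2 fold changes. Of 18 tested, Jun fell, 6 including Jun were lower and 1 higher at an unadjusted p below 0.05, and the median was -0.24, or -0.15 with quantile normalization and -0.38 with sex in the model. Jund, another AP-1 subunit, was at 135, 78.5 and 101 FPKM in the vitrified and 22.03, 14.9 and 17.7 in the melatonin libraries (-2.44 ± 0.50, limma adjusted p = 0.108). The antisense gene Gm11175 lies within Jund and had a log2 fold change of -2.34, and since the use of strand in the counting is not given, the reads of these genes cannot be told apart. Junb and Fos had overlapping groups, at 10.2, 17.98 and 14.6 against 16.1, 14.98 and 16.0 and 1.43, 0.615 and 0.546 against 0.554, 0.673 and 0.411 FPKM. The ERK phosphatase Dusp4 was at 17.7, 17.4 and 23.3 against 4.802, 13.1 and 7.54 FPKM, and the ERK inhibitor Spry2 at 3.69, 7.27 and 3.45 against 2.28, 1.79 and 1.56. The 22 tested FGF and ERK genes had a median of -0.07, which was 0.03 with quantile normalization and 0.14 with sex in the model.

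**Figure D5:**
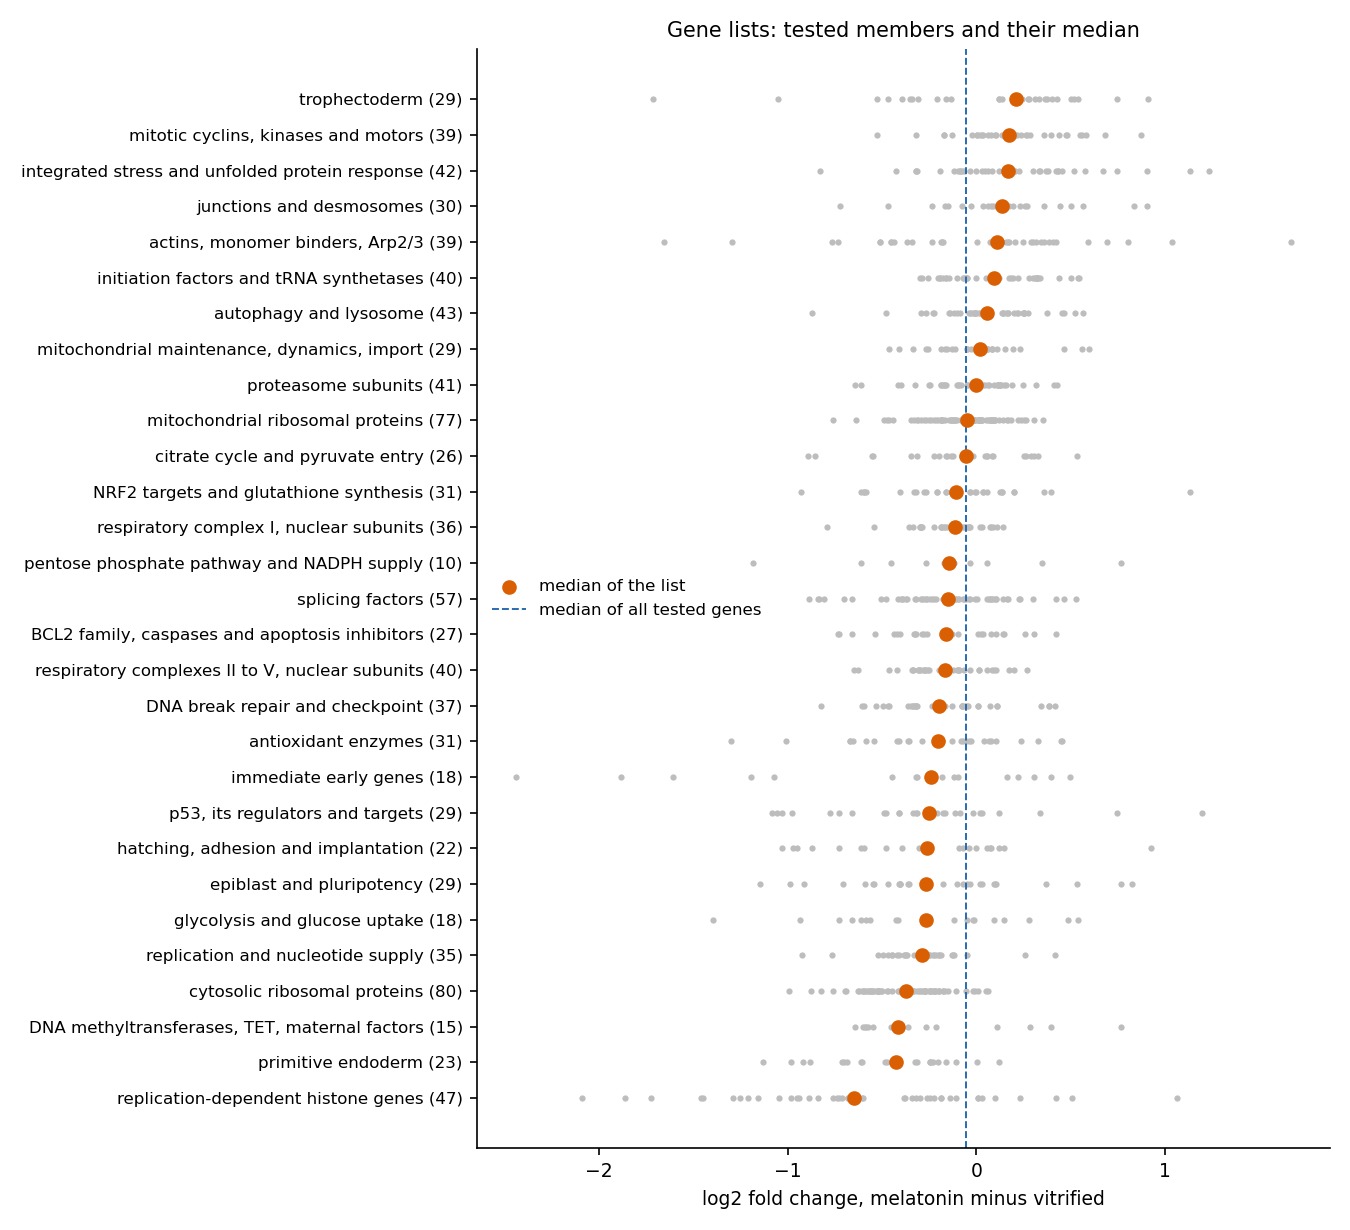
Log2 fold changes, melatonin minus vitrified, of the tested members (grey points) of 29 gene lists, with the number tested in brackets, the median of each list in orange and that of all tested genes as a dashed line. Medians run from -0.65 for replication-dependent histone genes to 0.21 for the trophectoderm, and most members of each list lie between -1 and 1.

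Epiblast and primitive endoderm lists had negative medians and the trophectoderm list a positive one, a difference that was not tested. Of 29 epiblast and pluripotency genes, 0 passed, 7 were lower and 2 higher at an unadjusted p below 0.05, and the median was -0.27, which was 0.17 with embryo sex as a covariate. Pou5f1 (OCT4) was at 46.5, 48.1 and 36.98 FPKM without and 27.9, 25.1 and 25.97 with melatonin (-0.71 ± 0.26, limma adjusted p = 0.264), and Klf2 at 9.098, 15.6 and 16.4 against 7.12, 4.51 and 4.98. Nanog lay the other way, at 28.3, 31.9 and 33.3 against 37.01, 46.8 and 54.6 FPKM, with fresh libraries at 3.49 and 9.79 (0.54 ± 0.29, adjusted p = 0.416), and so did Zfp42 (REX1), at 179, 175 and 197 against 216, 250.4 and 247. In these 4 genes the groups did not overlap, and Sox2, at 0.9001, 3.19 and 3.198 against 2.18, 2.07 and 0.482 FPKM, did overlap. Primitive endoderm genes had a median of -0.43 over 23 tested (4 lower and 0 higher at an unadjusted p below 0.05), which was -0.72 without vitrified replicate 1 and -0.09 with embryo sex as a covariate. Gata6 had a log2 fold change of -0.70 ± 0.27 (adjusted p = 0.284). The platelet-derived growth factor receptor Pdgfra was at 4.21, 5.04 and 3.34 against 1.41, 2.25 and 1.77 FPKM, and 17 basement membrane genes had a median of -0.45 (-0.14 with sex in the model).

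The 29 tested trophectoderm genes had a median of 0.21 (0.13 with sex in the model), with 0 called, 3 higher and 1 lower at an unadjusted p below 0.05. Cdx2, given above, had a log2 fold change of 0.27 ± 0.15, and Gata3 was at 165, 112 and 146 against 112, 114 and 104 FPKM. Keratins 8 and 18, at 3038, 1485 and 2646 against 3499, 2637 and 2967 FPKM for Krt8 and 7783, 4947 and 6932 against 7652, 6047 and 7653 for Krt18, had overlapping groups. Dppa1 was at 963, 735 and 729 against 1032, 1285 and 1111 FPKM, without overlap (0.50 ± 0.16, limma adjusted p = 0.219). YAP targets within the Hippo list (median -0.0032, and 0.12 with quantile normalization) included Cyr61 at 52.6, 83.2 and 60.6 against 47.2, 28.1 and 25.9 FPKM and Ankrd1 at 0.242, 24.8 and 16.7 against 0, 0.386 and 2.005, the latter with vitrified replicate 1 in the melatonin range.

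The trophectoderm seals the cavity with tight junctions and fills it by ion transport. Claudin 4, Cldn4 (chr5:134945119-134946934, minus strand), was the protein-coding gene nearest to passing in the higher direction, at 353, 354 and 494 FPKM without and 713, 702 and 814 with melatonin and 979 and 876 in fresh blastocysts (0.91 ± 0.16, limma adjusted p = 0.0802). Every melatonin value was above every vitrified value. Marveld2 (tricellulin) was at 5.499, 4.46 and 8.04 against 12.8, 8.26 and 13.2 FPKM, occludin, Ocln, at 13.4, 11.9 and 17.7 against 24.9, 20.9 and 16.5 and Cldn6, in the other direction, at 38.5, 28.6 and 30.9 against 24.4, 12.5 and 23.1. The 30 junction genes had a median of 0.13, with 3 higher and 1 lower at an unadjusted p below 0.05. The 13 tested genes of fluid transport for the cavity had a median of -0.04 (0.06 without vitrified replicate 1), 6 being positive and 7 negative. Of them 0 passed, and 2 were higher and 2 lower at an unadjusted p below 0.05. Their member Atp1b1, a beta subunit of the sodium pump that drives cavity fluid, was at 38.99, 45.2 and 50.6 against 66.7, 57.3 and 60.1 FPKM, without overlap (0.45 ± 0.17, limma adjusted p = 0.273). Hatching, adhesion and implantation genes had a median of -0.26, which shrank to -0.05 with sex in the model and -0.14 with quantile normalization (6 of 22 lower and 0 higher at an unadjusted p below 0.05), among them the proteases Ctsl, at 167, 254 and 207 against 94.8, 141 and 106 FPKM, and Ctsb, at 97.01, 94.3 and 101 against 58.9, 76.2 and 75.1.

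Beyond Arpc1b and Marcks, the 39 tested genes of actins, monomer binders and the Arp2/3 complex had a median of 0.11, which was -0.03 with embryo sex as a covariate. Besides the 1 that rose and the 1 that fell, 37 members had an adjusted p above 0.05, and of all 39, 6 were higher and 5 lower at an unadjusted p below 0.05. Of the 9 Arp2/3 genes, set apart after the calls were known, 4 were higher and 1 lower at that level, and their median of 0.34 was 0.09 with sex in the model. They included Arpc4 at 52.2, 39.2 and 45.4 against 62.7, 107 and 59.9 FPKM and Arpc3 at 10.4, 11.03 and 7.68 against 19.6, 14.7 and 18.4, both without overlap, while Actr2 was at 46.5, 50.95 and 43.5 against 33.9, 29.6 and 39.1. Arpc1a, the alternative to Arpc1b in the complex, was at 45.4, 46.9 and 46.9 against 42.5, 37.2 and 43.5 FPKM (-0.18 ± 0.14). The cytoplasmic actins had negative log2 fold changes, with Actb at 159, 202 and 159 against 78.5, 45.4 and 94.6 FPKM (-1.30 ± 0.26, limma adjusted p = 0.108) and Actg1 at 533, 332 and 337 against 269, 178 and 251 (-0.77 ± 0.23, adjusted p = 0.208).

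Cytosolic ribosomal protein genes had mostly small negative log2 fold changes. Of 80 tested 0 passed, 77 had a negative log2 fold change, 29 were lower and 0 higher at an unadjusted p below 0.05, and the median was -0.37. It was -0.31 with quantile normalization and -0.18 with embryo sex as a covariate. Their summed level was 12100, 15250 and 13480 FPKM in the vitrified and 9515, 11130 and 12060 in the melatonin libraries, with all 3 melatonin sums below the lowest vitrified one, and 18110 and 14220 in the fresh ones. Among single genes, Rps26 was at 286, 359 and 308 against 175, 221 and 233 FPKM (-0.60 ± 0.17, limma adjusted p = 0.194) and Rplp2 at 95.6, 142 and 118 against 67.7, 74.95 and 73.97. Many of these genes have processed pseudogenes that can take their reads, and the 173 tested processed pseudogenes had a median of -0.18 (-0.10 with quantile normalization). The 40 initiation factors and aminoacyl-tRNA synthetases had a median of 0.09, 4 being higher and 0 lower at an unadjusted p below 0.05. Nars was at 460.3, 516 and 577 against 798, 681 and 786 FPKM and Eif4g2 at 48.8, 43.9 and 47.9 against 72.1, 67.1 and 66.5. The nucleolar methyltransferase Fbl was at 70.9, 73.3 and 80.8 against 46.5, 46.5 and 48.7 FPKM (-0.65 ± 0.13, adjusted p = 0.109).

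Splicing factors and nuclear RNAs had negative medians as well. Of 57 splicing factors 0 passed, 9 were lower and 1 higher at an unadjusted p below 0.05, with a median of -0.15 (-0.07 with quantile normalization and -0.10 with sex in the model). The helicase Ddx39b was at 27.97, 30.4 and 28.1 against 16.1, 18.0 and 18.1 FPKM (-0.70 ± 0.14, limma adjusted p = 0.104), and the serine- and arginine-rich Srsf2 at 121, 141 and 121 against 75.7, 65.7 and 71.04 (-0.84 ± 0.19, adjusted p = 0.121). Of 12 nuclear retained noncoding RNAs all had a negative log2 fold change (median -0.44), 4 of them at an unadjusted p below 0.05. With sex in the model that median was -0.12, and the value of Xist, which is in this list, went from -1.98 to -0.24. Malat1, which sits in nuclear speckles, was at 139.6, 146 and 149 FPKM without and 75.1, 70.3 and 94.3 with melatonin, and at 11.4 and 93.4 in the fresh libraries (-0.86 ± 0.57, adjusted p = 0.501). The groups compared did not overlap, while the fresh libraries, which enter the estimate of the spread, lay far apart. Neat1, the paraspeckle scaffold, was at 2.84, 2.21 and 1.88 against 1.29, 1.34 and 1.22 FPKM. Xist, the X inactivation RNA, was at 0.684, 10.4 and 8.14 against 0.396, 0.363 and 0.514 FPKM, highest in vitrified replicates 2 and 3, the libraries without Y-linked transcripts.

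Genes on the X chromosome had mostly negative log2 fold changes. Of 362 tested 0 passed, 83 were lower and 5 higher at an unadjusted p below 0.05, with a median of -0.24, which became -0.06 once sex was in the model, -0.16 with quantile normalization and -0.32 without vitrified replicate 1. The 15 called genes included 0 on the X or the Y chromosome.

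In the remaining lists 0 genes passed. The 15 DNA methyltransferases, TET enzymes and maternal protection factors had a median of -0.42, 5 being lower at an unadjusted p below 0.05, among them Dnmt3l, a cofactor of new DNA methylation, at 33.5, 37.7 and 27.8 against 24.7, 16.3 and 21.7 FPKM. With embryo sex as a covariate that median was -0.07, and with quantile normalization -0.27. Of the 15, 11 had a negative and 4 a positive log2 fold change, up to 0.77, and 0 were higher at an unadjusted p below 0.05. The summed level of all 17 genes of this list in the table went the other way, at 1714, 1402 and 1499 FPKM without and 2197, 2279 and 2990 with melatonin. Among 41 histone-modifying enzymes (median -0.01, and 0.05 with quantile normalization), the deacetylase Hdac2 was at 55.7, 49.5 and 52.6 against 28.8, 36.3 and 33.7 FPKM (-0.66 ± 0.16, limma adjusted p = 0.159). The 13 imprinted genes tested had a median of -0.47, or -0.05 with that covariate, and 18 genes of iron handling one of 0.07. Of 9 interferon response genes 3 were lower and 1 higher at an unadjusted p below 0.05, and Bst2 (tetherin) was at 15.7, 18.5 and 17.5 against 6.23, 6.01 and 5.93 FPKM (-1.37 ± 0.23, adjusted p = 0.0802). Proteasome and autophagy genes had medians of -0.0042 (41 tested, 0.05 with quantile normalization) and 0.06 (43 tested), and cholesterol synthesis and fatty acid genes 0.10 (27) and -0.07 (29). In the sterol pathway Fdps was at 22.5, 19.4 and 19.1 against 37.1, 39.2 and 28.8 FPKM and Mvd at 25.7, 30.96 and 23.8 against 40.1, 46.9 and 37.8, both with every melatonin value above every vitrified one. In the other direction, Ebp, which lies on the X chromosome, was at 47.3, 58.2 and 50.02 against 32.2, 36.04 and 35.04 FPKM.

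Some genes near the threshold belong to none of these lists and were chosen after their values were seen. Ptov1, at 32.2, 26.9 and 26.3 against 11.4, 6.42 and 7.97 FPKM, had a limma adjusted p of 0.0695, and the extracellular sulfatase Sulf2, at 10.3, 9.34 and 10.4 against 3.32, 4.83 and 4.101, one of 0.0798. The WNT antagonist Dkk1 was at 29.6, 42.5 and 37.0 against 18.1, 14.8 and 10.97 FPKM (adjusted p = 0.08702) and the lipid carrier Apoe at 29.8, 49.1 and 51.8 against 21.5, 14.7 and 16.2 (adjusted p = 0.0966). The nuclear phosphatase inhibitor Anp32a was at 13.5, 11.7 and 13.5 against 5.88, 6.43 and 6.77 FPKM (adjusted p = 0.0802). In all 5 every melatonin library lay below every vitrified one. The pseudogene Kansl2-ps was the second gene after Cldn4 in the higher direction between 0.05 and 0.1, at 28.8, 24.4 and 27.02 against 50.8, 45.4 and 48.6 FPKM (adjusted p = 0.0966).

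Markers of cells that could be carried along with embryos were low in both groups. Of 5 fibroblast markers listed, 0 reached the level for testing, and their sum was 0, 0.336 and 0.32 FPKM in the vitrified and 0.2599, 0.2105 and 0 in the melatonin libraries. Testable were 1 of 4 cumulus and granulosa cell markers, 1 of 4 blood cell markers, 2 of 5 sperm markers and 5 of 13 oocyte transcripts. Cumulus and granulosa cell markers summed to 1.57, 4.35 and 3.0 against 1.38, 0.926 and 1.83 FPKM, blood cell markers to 1.02, 6.25 and 5.199 against 5.44, 2.77 and 1.6, and sperm markers to 9.19, 9.75 and 7.15 against 9.49, 8.06 and 7.73. Oocyte transcripts, which can persist into the embryo, summed to 184, 161 and 139 FPKM without and 177, 224 and 189 with melatonin. The cumulus marker sums were highest in vitrified replicates 2 and 3, and their part in the results above was not tested.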

How the data were processed

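RNA from 3 groups of mouse blastocysts was sequenced, and values are FPKM that the authors deposited in 1 table, which per the submitters' processing notes were made on mm10. Aligner, counter, annotation and strand use: not given in the sources used here. Per the labels, the design text names Smart-seq2, while the sample protocols describe stranded poly(A) libraries, so the library method is not settled. FPKM steps of low genes gave whole fragments, within 0.1, for 95.05% to 97.81% of values, and thereby the depth.

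Genes with at least 1 FPKM in at least 2 of 8 libraries were fitted as log2(FPKM + 1) with limma 3.58.1 (R 4.3.3), in 1 model of the 3 groups with a mean-variance trend. The contrast was melatonin minus vitrified, two-sided, called at a Benjamini-Hochberg adjusted p below 0.05. Single values per library were compared by exact permutation (scipy 1.17.1), where the smallest p is 0.1. The scripts were tested on simulated data. Positions are from GENCODE M21 and promoters from RefSeq GRCm38.p6. Figures used matplotlib 3.10.9.

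Members and gene lists were chosen with earlier results of these data known. Named were called genes with a mean of at least 5 FPKM, no overlap and a non-provisional symbol, a panel (1 member of which is not reported here), up to 2 passing members per list and direction, and up to 6 genes at 0 in 1 group only. Alternatives covered scaling, filter, pseudocount, trend, samples fitted, weights, replicate block, embryo sex, GC content with length, thresholds and leaving out each library.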

Additional observations from a re-analysis of the deposited data

How the results depend on the processing

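The number of called genes varied between settings. Quantile normalization called 8 genes (6 lower), a pseudocount of 0.1 called 6 (4 lower), and a mean of at least 5 FPKM left 7 lower. Without a filter 13 genes were called, of which 6 were among the 15. Fitting the 6 compared libraries alone called 68 (8 higher, 60 lower), array weights 233 (36 and 197), and an adjusted p below 0.1 gave 45 (5 and 40). Embryo sex as a covariate called 3, with 0 lower. A replicate block by biosample number called 1 gene (1 higher, 0 lower), and a replicate block by title number called 0 (0 and 0). Deviations of same-numbered samples from their group means had correlations of 0.121, 0.068 and -0.030 by biosample number, where other pairs ran from -0.12 to 0.055. By title number they were -0.093 and -0.030. With 3 libraries per group such values cannot decide whether samples were paired. The labels state no pairing, and the numbers were not taken to pair the samples. Leaving out 1 library gave 1 to 68 called genes, 1 to 8 higher and 0 to 60 lower, a difference in detected genes of -1594 to -1268 and one in mitochondrial share of -0.73 to -0.06 percentage points. The causes were not tested. With 3 libraries in each compared group and 5879000 to 8208000 fragments in each, genes near 1 FPKM rest on few fragments.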
